A study of Homo sapiens with 8 samples.

Results

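The 10 genes described here encode the enzymes of serine synthesis and of the folate-bound one-carbon units that serine supplies: PHGDH, PSAT1, PSPH, SHMT1, SHMT2, MTHFD1, MTHFD1L, MTHFD2, MTHFD2L and ALDH1L2. They were chosen by name, with earlier results of these data known. Their values were taken from the listed transcripts whose RefSeq identifier belongs to one of them. These were 21 of 24812 transcripts, and summed per gene they gave 10 of 14528 named genes. RNA sequencing compared 4 cultures of SQ20B cells in normoxia with 4 cultures in hypoxia, which meant 0.5% O2 for 16 h. SQ20B is an established human head and neck squamous carcinoma line, grown in glucose-rich medium with serum, and it was the single line sequenced. The oxygen level of the normoxia cultures was not given in the sources used here.

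The table holds 1 pooled FPKM value per transcript and condition, a measure of abundance that scales sequenced fragments to transcript length and to the size of the library. A gene's level is the sum of its transcripts. The spread among cultures is therefore not visible, no value carries an error, and no test between the conditions was made. The table gives no read counts, so no counting interval could be given. A gene or transcript was called higher or lower when it differed at least 1.5-fold on the scale of log2(FPKM + 0.1), among those with a mean FPKM of 0.5 or more. These calls describe the deposited means and are not statistical significance. The cells carried several genes of squamous and other epithelium: KRT5 was at 398 FPKM in normoxia against 442 in hypoxia, TP63 at 42.8 and 44.6, and EPCAM at 317 and 233. Of 8 such markers 6 were in the table, while KRT14 and EGFR had no value here. KRT6A, at 5.10 and 3.26 FPKM, was the lowest of the 6 and the one called lower. Of 8 markers of other cell types, CD14 was listed at 0.119 and 0.132 FPKM, and the other 7 had no value here. Known hypoxia targets separated the conditions, since all 9 listed genes of that set were called higher in hypoxia. Among them NDRG1 went from 6.19 to 300.01 FPKM and CA9, a carbonic anhydrase, from 0.694 to 21.6.

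Serine is made from the glycolytic intermediate phosphoglycerate in 3 steps: PHGDH oxidizes it, PSAT1 transfers an amino group from glutamate, and PSPH removes the phosphate. The serine hydroxymethyltransferases then split serine into glycine and a one-carbon unit carried by tetrahydrofolate, SHMT1 in the cytosol and SHMT2 in mitochondria. In mitochondria MTHFD2 or MTHFD2L oxidizes that unit, MTHFD1L releases it as formate and ALDH1L2 can burn it to carbon dioxide with formation of NADPH. In the cytosol the trifunctional MTHFD1 takes formate up again for purine, thymidylate and methionine synthesis. Proliferating tumor cells commonly express the mitochondrial branch strongly, and the transcription factor ATF4 is known to drive much of the pathway.

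Of the 10 genes, PHGDH alone was called higher in hypoxia and MTHFD2L alone was called lower. The other 8 lay within 1.5-fold. Over all 12106 genes with a mean FPKM of 0.5 or more, 9.95% were called higher and 11.2% lower, so 1 gene in each direction out of 10 is near the share of all genes. The median log2 change of the 10 genes was -0.11 and that of all genes -0.07. By sign alone, 3 of the 10 were above 0 and 7 below it, and 56.4% of all genes lay below 0. In a bulk culture, a lower level in every cell cannot be told apart from fewer cells with the transcript.

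The promoter sequences of the called genes PHGDH and MTHFD2L are shown first, together with that of MTHFD1L, whose window held every motif searched and whose level differed little. Each window runs from 250 bases before to 50 bases after the transcript start in RefSeq (GRCh38.p14). Each matched GRCh37, the assembly of the same coordinates as hg19, exactly and at 1 place in the searched region around its gene. Written 5′ to 3′ on the gene's strand, PHGDH lies at chr1:120254307-120254606 on the plus strand, MTHFD2L at chr4:75023585-75023884 on the plus strand and MTHFD1L at chr6:151187372-151187671 on the plus strand. The windows of MTHFD2L and MTHFD1L are the first of 2 and 4 listed, and all 3 windows lie inside a GENCODE gene span that begins farther upstream. Capitals mark matches on either strand to ACGTG and GCGTG, the core forms bound by hypoxia-inducible factors, to CACGTG, the E-box of MYC and its relatives, which always contains ACGTG, and to TGATGNAA, the type of element bound by ATF4.
PHGDH: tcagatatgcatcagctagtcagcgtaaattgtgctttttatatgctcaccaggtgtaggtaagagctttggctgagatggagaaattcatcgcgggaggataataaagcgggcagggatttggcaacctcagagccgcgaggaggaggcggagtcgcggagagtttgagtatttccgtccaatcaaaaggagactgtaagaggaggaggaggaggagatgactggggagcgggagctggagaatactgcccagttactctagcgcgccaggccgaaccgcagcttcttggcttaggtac
MTHFD2L: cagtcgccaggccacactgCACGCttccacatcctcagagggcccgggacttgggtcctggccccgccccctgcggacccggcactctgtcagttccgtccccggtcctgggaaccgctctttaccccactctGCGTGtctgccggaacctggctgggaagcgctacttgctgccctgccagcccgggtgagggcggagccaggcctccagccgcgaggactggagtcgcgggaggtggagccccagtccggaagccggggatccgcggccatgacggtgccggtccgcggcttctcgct
MTHFD1L: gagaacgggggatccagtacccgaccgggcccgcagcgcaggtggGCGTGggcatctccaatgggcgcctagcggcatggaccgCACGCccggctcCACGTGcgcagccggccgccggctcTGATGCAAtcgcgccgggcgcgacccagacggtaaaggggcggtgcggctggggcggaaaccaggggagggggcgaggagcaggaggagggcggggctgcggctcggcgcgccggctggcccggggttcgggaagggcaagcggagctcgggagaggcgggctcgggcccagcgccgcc

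The PHGDH window held none of these letters. The MTHFD2L window held GCGTG at 231 bases before the start, on the opposite strand, and at 117 bases before it. In the MTHFD1L window, GCGTG lay 205 and 166 bases before the start, CACGTG 154 bases before it and TGATGCAA 129 bases before it. PHGDH, SHMT1, MTHFD1, MTHFD1L, MTHFD2, MTHFD2L and PSAT1 had a window, 11 windows in all. PSPH, SHMT2 and ALDH1L2 had none. Of these 7 genes, 3 held ACGTG in a window (MTHFD2, MTHFD1L and MTHFD1), 4 held GCGTG (MTHFD2, MTHFD2L, MTHFD1L and PSAT1), 2 held CACGTG (MTHFD1L and MTHFD1) and 1 held TGATGNAA (MTHFD1L). By window, ACGTG was in 5 of 11, GCGTG in 6, CACGTG in 4 and TGATGNAA in 3, but 3 of the MTHFD1L windows overlap and repeat the same sites. Among all 35116 promoter windows of this length, 21.4% held ACGTG, 36.5% GCGTG, 7.26% CACGTG and 3.62% TGATGNAA. Whether a match, or its absence from the 1 window of PHGDH, bears on the change of a gene was not tested. A match is a description of letters, and occupancy was not measured here.

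Serine synthesis opened with the single called increase. PHGDH (chromosome 1, 120191034 to 120286841 on GRCh37) was listed with 1 transcript, NM_006623, at 16.4 FPKM in normoxia against 24.8 in hypoxia. That is a log2 change of 0.59, or 1.51-fold, just past the limit for a call, and percentile 90.2 of the changes of all genes. With 1 instead of 0.1 added to each FPKM the change was 0.57 and was no longer called. PSAT1 (chromosome 9, 80912041 to 80945009) was the second most abundant of the 10 genes in both conditions, at 113.8 and 89.6 FPKM, and was 1.27-fold lower in hypoxia with a log2 change of -0.34. Nearly all of it was transcript NM_058179, with 99.2% of the gene's FPKM in normoxia and 99.1% in hypoxia. PSPH (chromosome 7, 56078744 to 56119297) was at 59.8 and 58.4 FPKM, a log2 change of -0.03. The 3 steps of the route thus lay on both sides of 0, with the first enzyme higher and the second lower.

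Ratios within a condition do not change when a column is multiplied by a single factor. PSAT1 exceeded PHGDH 6.93-fold in normoxia and 3.61-fold in hypoxia. PSPH exceeded it 3.64-fold and then 2.35-fold. PHGDH was the least abundant of the 3 in both conditions, and the distance to its partners was smaller in hypoxia.

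**Figure D1:**
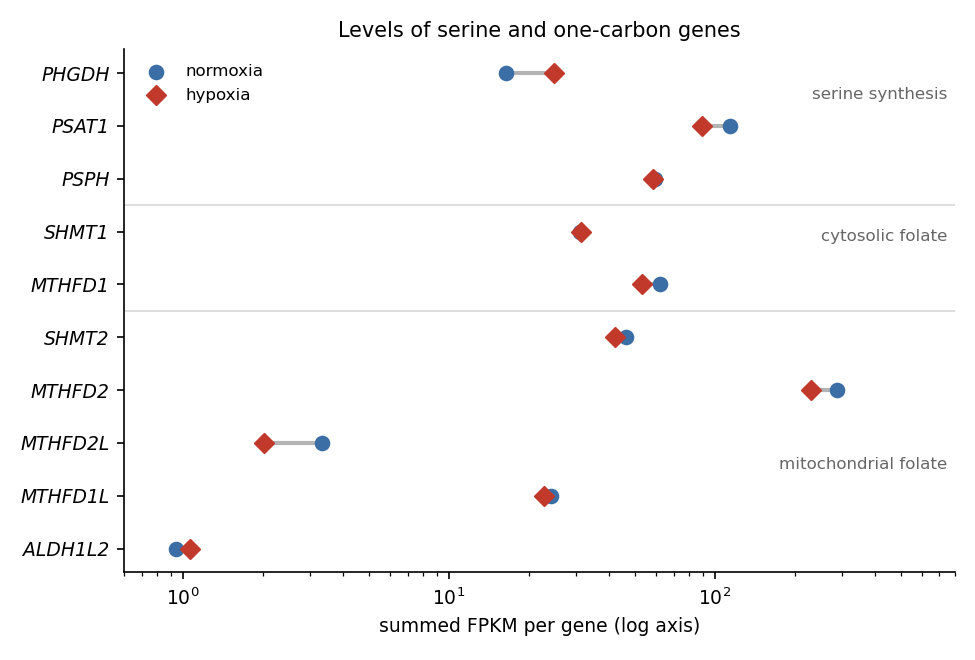
Summed FPKM of each of the 10 genes in normoxia (circles) and hypoxia (diamonds) on a log axis, grouped by the step of the pathway, with 1 pooled value per gene and condition and no error. PHGDH moved to the right and MTHFD2L to the left. The order of the genes by level, from MTHFD2 as the highest to ALDH1L2 as the lowest, was almost unchanged.

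The serine hydroxymethyltransferases differed little. SHMT1 (chromosome 17, 18231174 to 18266877) was at 31.2 FPKM in normoxia against 31.4 in hypoxia, a log2 change of 0.01. SHMT2 (chromosome 12, 57623356 to 57628718) was at 46.2 and 42.1 FPKM, a change of -0.14. Summed over its transcripts, SHMT2 was therefore the more abundant gene in both conditions, 1.48-fold above SHMT1 in normoxia and 1.34-fold in hypoxia.

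The mitochondrial dehydrogenases held both the highest level and the largest decrease of the 10 genes. MTHFD2 (chromosome 2, 74413299 to 74444692), a bifunctional dehydrogenase and cyclohydrolase that is high in embryos and tumors, was the most abundant of them at 287.5 FPKM in normoxia against 231.0 in hypoxia. It stood at percentile 97.8 of the levels of all genes, and was 1.24-fold lower in hypoxia with a log2 change of -0.32, which became 0.0036 after quantile normalization. Its paralog MTHFD2L (chromosome 4, 74979891 to 75168816), which carries out the same steps in adult tissues, was at 3.33 and 2.01 FPKM. This was 1.65-fold lower, a log2 change of -0.70, at percentile 7.38 of all changes. MTHFD2 exceeded MTHFD2L 86.4-fold in normoxia and 114.8-fold in hypoxia, so the transcripts of this step came almost wholly from MTHFD2 in both conditions.

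MTHFD1L (chromosome 6, 151186815 to 151423023), the mitochondrial formate-releasing synthetase, was at 24.1 FPKM in normoxia against 22.8 in hypoxia, a log2 change of -0.08. MTHFD1 (chromosome 14, 64854749 to 64930175), its cytosolic trifunctional counterpart, was at 62.4 and 53.1 FPKM, a change of -0.23. ALDH1L2 (chromosome 12, 105413562 to 105501421), the mitochondrial formyl-tetrahydrofolate dehydrogenase, was the least abundant of the 10 genes at 0.940 and 1.06 FPKM, a change of 0.16. Its cytosolic paralog ALDH1L1 was at 1.82 and 2.15 FPKM, a change of 0.23. Transcripts for the oxidizing exit from the folate pool were thus low for both compartments, and enzyme activity was not measured here.

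Summed over the enzymes, the 5 mitochondrial genes gave 362.1 FPKM in normoxia against 298.9 in hypoxia, the 2 cytosolic genes 93.7 and 84.5, and the 3 serine synthesis genes 190.1 and 172.9. The log2 changes of these sums were -0.28, -0.15 and -0.14. The mitochondrial sum counted all SHMT2 transcripts and was mostly MTHFD2, and the median change of its 5 genes was -0.14. The order of the 10 genes by level was nearly the same in both conditions, with PSPH and MTHFD1 exchanging ranks 3 and 4 and PHGDH and MTHFD1L exchanging ranks 7 and 8. Without replicate values, whether neighbors in this order differ beyond their spread was not tested.

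**Figure D2:**
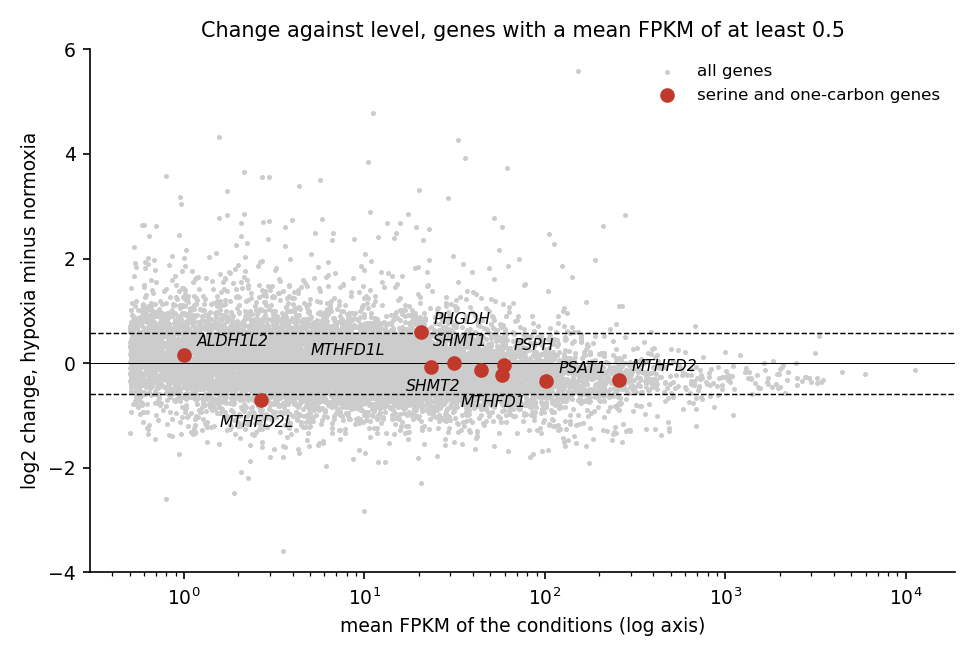
Log2 change (hypoxia minus normoxia) against the mean FPKM of the conditions on a log axis for the 12106 genes with a mean FPKM of 0.5 or more (grey), with the 10 serine and one-carbon genes in red and dashed lines at 1.5-fold. PHGDH lies on the upper line, MTHFD2L just below the lower line, and the other 8 genes between them.

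Changes this small are sensitive to the scaling of the columns. Over the whole table, the FPKM sum was 536005 for normoxia and 458431 for hypoxia. Among the 5811 genes with a mean FPKM of 10 or more, the median log2 change was -0.18, and 68.3% lay below 0. Scaled to equal sums, the median of all genes shifted by 0.22, the change of PHGDH was 0.82, that of MTHFD2L was -0.48 and no longer called, and the median of the 10 genes was 0.12. The direction of the whole group therefore flips with this choice, as do the signs of PSPH, SHMT2 and MTHFD1L. Of all called genes, 46.9% were higher as deposited, and 78.8% were higher with equal sums, 58.6% after median centring and 57.8% after quantile normalization. PHGDH stayed above 0 and MTHFD2L below 0 under all 3 of these scalings.

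**Figure D3:**
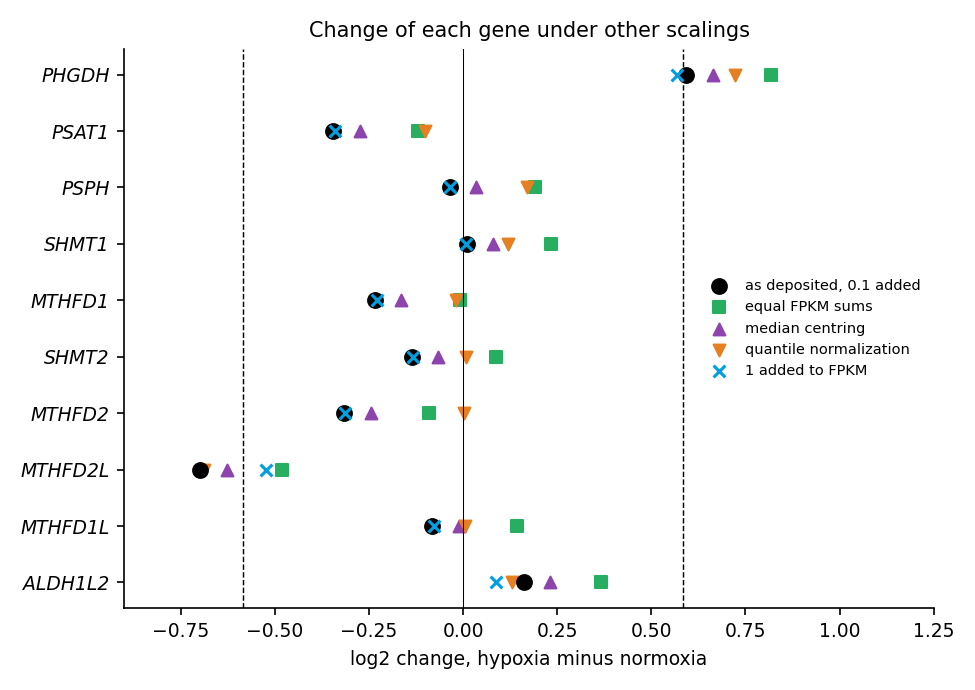
Log2 change of each of the 10 genes as deposited with 0.1 added (black circles), after 3 other scalings of the columns (colored symbols) and with 1 added (crosses), with dashed lines at 1.5-fold. PHGDH stays right of 0 and MTHFD2L left of 0 in every setting drawn, while PSPH, SHMT2, MTHFD1L and MTHFD2 fall on either side of 0, MTHFD2 only after quantile normalization.

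Transcripts were then compared singly, since 4 of the genes were listed with more than 1. Of the 21 transcripts, 19 had a mean FPKM of 0.5 or more, and of these 2 were called higher and 3 lower. Over all 18190 transcripts at this level, 10.5% were called higher and 14.3% lower. Of these 5 calls, 3 fell on minor SHMT2 transcripts, beside those of PHGDH and MTHFD2L.

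SHMT2 was listed with 7 transcripts, which share most of their exons. The main one, the coding NM_001166359, held 87.9% of the gene's FPKM in normoxia and 87.7% in hypoxia, at 40.7 and 36.9 FPKM. The coding NM_005412 went from 1.38 FPKM to 0.0211, a log2 change of -3.61 that took its share from 2.98% to 0.0501%. The noncoding NR_048562 was also lower, at 0.981 and 0.375 FPKM. In the other direction, the noncoding NR_029417 was at 1.30 and 2.75 FPKM, a log2 change of 1.02 that raised its share from 2.82% to 6.54%. Together the coding SHMT2 transcripts gave 43.1 FPKM in normoxia against 37.8 in hypoxia, and the noncoding ones 3.11 and 4.21. Which form of the enzyme each coding transcript encodes was not analysed here. The gene's sum hid these opposite differences, but each lies in a transcript with a small part of the gene, and how reads from shared exons were divided was not tested.

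SHMT1 was split between NM_004169 and NM_148918, which encode different forms of the enzyme. NM_004169 was at 21.6 FPKM in normoxia against 23.3 in hypoxia, and NM_148918 at 9.47 and 7.99. The share of NM_004169 went from 69.2% to 74.2% while the gene's sum stayed at the same level. MTHFD1L was split between NM_001242768, at 14.2 and 13.7 FPKM, and NM_001242769, at 9.08 and 8.02, with shares of 58.7% and 37.6% in normoxia and 60.1% and 35.2% in hypoxia. The balance of these forms therefore moved by a few percentage points.

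**Figure D4:**
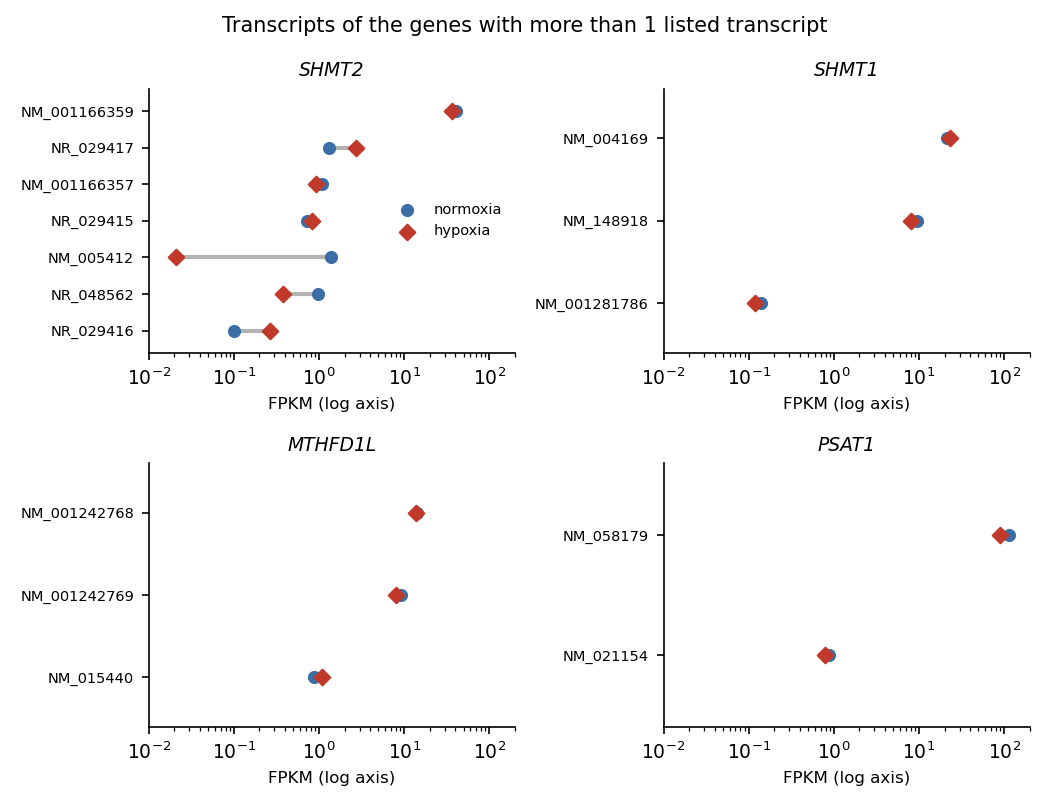
FPKM of every listed transcript of SHMT2, SHMT1, MTHFD1L and PSAT1 in normoxia (circles) and hypoxia (diamonds) on log axes, with 1 pooled value per transcript and condition. The wide gap for NM_005412 of SHMT2, from 1.38 to 0.0211 FPKM, stands beside a main transcript that lies near 40.7 and 36.9 FPKM.

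Several of the genes share sequence or place with others, which limits the reading of their values. Of the 10 genes, 5 have annotated pseudogenes named after them, 7 for MTHFD2, 4 for PSAT1 and 1 each for PSPH, SHMT1 and MTHFD1, and their reads may be split with these copies. ALDH1L2 overlaps NOPCHAP1 on the opposite strand, which was at 46.6 FPKM in normoxia against 23.4 in hypoxia, far above ALDH1L2 itself. MTHFD1 overlaps ZBTB25 on the opposite strand, at 9.35 and 13.5 FPKM, and MTHFD2 overlaps SLC4A5, at 4.09 and 3.55. SHMT2 overlaps the end of NDUFA4L2 on the opposite strand by 33 bases, and the latter had no value here. The libraries were stranded, but whether strand was used in quantification is not given in the sources used here, and the part of these neighbors in the values was not tested.

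The genes around the pathway were taken from lists of folate use and transport, mitochondrial serine and glycine handling, the methionine cycle and transsulfuration, serine uptake and use, regulators, ATF4 targets and the glycolytic branch point. Of 77 genes named in these lists, 61 were in the table and 57 had a mean FPKM of 0.5 or more. Of those 57, 5 were called higher (8.77%) and 12 lower (21.1%), and 40 lay between, with a median log2 change of -0.17. Over all genes the shares were 9.95% and 11.2% and the median was -0.07, and the calls in each list below stand beside these shares. The lists were written with earlier results of these data known, so their shares are a description and test nothing. With equal column sums, which call 18.3% of all genes higher and 4.94% lower, 8 of the pathway genes were called higher and 5 lower.

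Among the 9 enzymes of folate use, TYMS and GART were called. TYMS, the thymidylate synthase that consumes the one-carbon unit made by the SHMT enzymes, was at 41.1 FPKM in normoxia against 91.8 in hypoxia, a log2 change of 1.16 at percentile 97.7. It overlaps ENOSF1 on the opposite strand, which was at 17.8 FPKM in both conditions. GART, a purine synthesis enzyme that uses formyl-tetrahydrofolate, was at 96.7 and 61.0 FPKM, a change of -0.66. These consumers of one-carbon units thus did not share a direction.

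The folate carrier into mitochondria differed more than any of the 10 enzymes. SLC25A32, the mitochondrial folate carrier, was at 41.4 FPKM in normoxia against 16.6 in hypoxia, a log2 change of -1.32 at percentile 0.793 of all genes. It overlaps DCAF13 by 476 bases on the opposite strand, and DCAF13 was also lower, at 111 and 58.1 FPKM. Another annotated protein-coding gene overlaps SLC25A32 by 16532 bases on the same strand and had no value here. FPGS, which adds the glutamate tail that keeps folates in the cell, was at 3.48 and 1.83 FPKM, a change of -0.89. Of the 5 genes of folate transport at this level, these 2 were called lower and 0 higher, beside 11.2% and 9.95% of all genes.

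Of the sideroflexins, SFXN1, a mitochondrial serine transporter, was at 75.3 and 65.2 FPKM, while its relatives moved in opposite directions. SFXN3 was at 5.92 FPKM in normoxia against 14.6 in hypoxia, a log2 change of 1.29, and SFXN2 at 10.4 and 5.88, a change of -0.82. SFXN1 exceeded SFXN3 12.7-fold in normoxia and 4.47-fold in hypoxia. MTFMT, which formylates the mitochondrial initiator methionyl-tRNA with a one-carbon unit, was at 12.6 and 7.89 FPKM, a change of -0.67. In the methionine group of 9 genes, MTRR, the reductase that keeps methionine synthase active, was the single call, at 23.5 and 14.1 FPKM. In serine uptake and use, SLC1A4, a neutral amino acid transporter, was the single call, at 6.60 and 12.3 FPKM and thus in the direction of PHGDH.

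Of 6 regulators of these genes, 2 were called lower and 1 higher. ATF4 was at 329.5 FPKM in normoxia against 190.8 in hypoxia, a log2 change of -0.79, and MYC at 23.8 and 14.5, a change of -0.71. With equal column sums, the lower calls over all related lists went from 12 to 5. Which regulators and ATF4 targets stayed called under that scaling is not given here. KDM4C, a histone demethylase linked to serine pathway transcription, was at 2.08 and 4.20 FPKM, a change of 0.98. Of 10 other ATF4 targets, 4 were called lower and 0 higher, with a median change of -0.46, beside 11.2% and 9.95% of all genes and their median of -0.07. They were SLC7A11 (18.8 and 4.99 FPKM), the cystine transporter, CHAC1 (0.929 and 0.353), a glutathione-degrading enzyme, DDIT3 (48.6 and 28.6), a stress transcription factor, and PYCR1 (7.64 and 4.55), a proline synthesis enzyme. ASNS, the asparagine synthetase, was at 57.6 and 55.4 FPKM. This list of targets was also written with earlier results known, so its share of lower calls is a description. PSAT1, PSPH and SHMT2, likewise known as targets of ATF4, had log2 changes of -0.34, -0.03 and -0.14, and PHGDH lay on the other side at 0.59. Because ATF4 is controlled mainly through its translation, its transcript level does not measure its activity, and the protein was not measured here.

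At the branch point from glycolysis, PGAM1, the mutase that draws phosphoglycerate onward, was at 177 FPKM in normoxia against 280 in hypoxia, a log2 change of 0.66, and PKM was at 503 and 598, a change of 0.25. PHGDH therefore differed in the same direction as PGAM1, and both stood below the changes of 1.02 to 5.58 for the 9 known hypoxia targets.

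**Figure D5:**
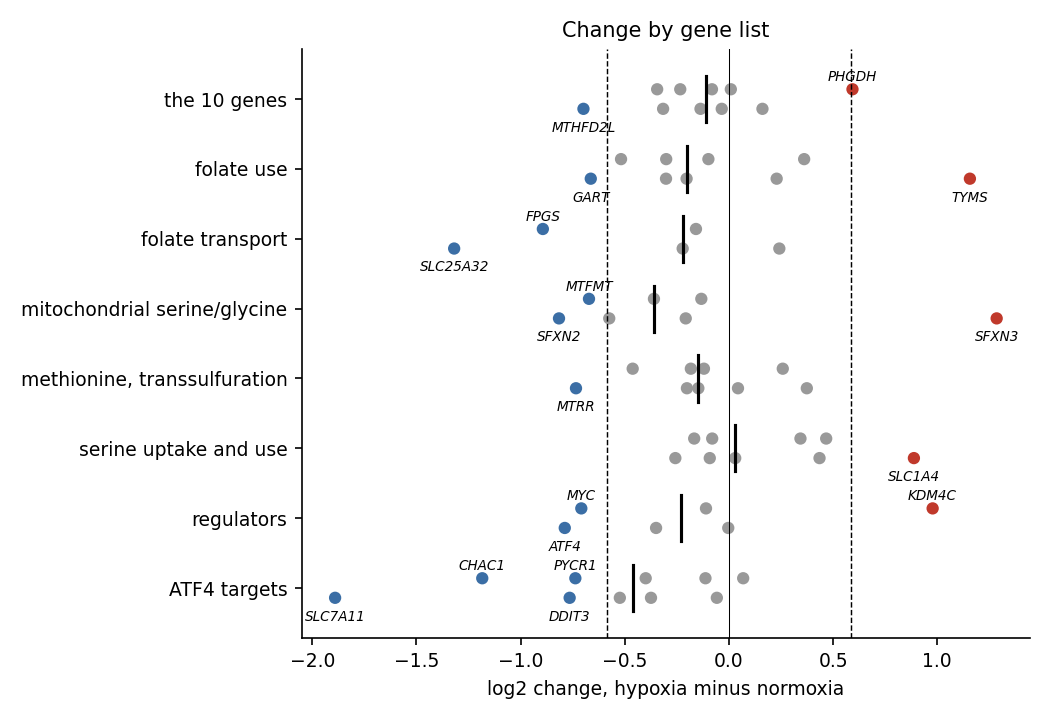
Log2 change (hypoxia minus normoxia) of the 10 genes and of 7 of the 8 related lists, all but the glycolytic branch point, for genes with a mean FPKM of 0.5 or more, with called genes named and colored (red higher, blue lower), black bars at each list's median and dashed lines at 1.5-fold. SLC7A11 and SLC25A32 lie farthest to the left, TYMS and SFXN3 farthest to the right, and 8 of the 10 pathway enzymes lie between the dashed lines.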

How the data were processed

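The libraries were poly(A)-selected and stranded, from 4 normoxia and 4 hypoxia cultures, grouped by the labels' source field. Per the labels and the methods, the authors aligned reads to hg19 with STAR (2.3.0.1) and ran Cuffdiff from Cufflinks (2.1.1) with RefSeq transcripts. The deposited table holds 1 FPKM per transcript and condition, estimated by the authors over the replicates. The authors' own log2 fold changes, test statistics, p-values and q-values were not used. Of 24812 transcripts, 24293 (97.9%) were paired with a symbol through RefSeq (GRCh38.p14), and FPKM was summed per gene. Differences are log2(hypoxia + 0.1) minus log2(normoxia + 0.1), and the calculation was tested on simulated data. Alternatives were other pseudocounts, level minimums, folds and scalings. All 10 genes and their transcripts are given. From each related list the genes past 1.5-fold, at most the 4 with the largest change, and some fixed genes of interest are named, of which a few are not reported here; PGK1 and GLDC were not analysed here. Gene positions come from GENCODE v44lift37, and promoters from RefSeq. Python 3.11.15, pandas 2.3.3 and numpy 2.4.6 were used. The genes and lists were chosen with earlier results of these data known.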

Additional observations from a re-analysis of the deposited data

How the results depend on the processing

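No paired analysis was possible because the table holds 1 pooled value per condition, and no replicate could be left out for the same reason. Of the 10 genes' changes recomputed under other settings, 54 were moved by the setting, of which 43 kept their sign and side of 1.5-fold, 8 turned sign and 3 crossed the limit. With 1 added to FPKM, PHGDH was 0.57 and MTHFD2L -0.52, so 0 of the 10 genes were called higher and 0 lower. With equal FPKM sums, MTHFD2L was -0.48 and 0 of the 10 were called lower, their median was 0.12, PSPH was 0.19, SHMT2 0.089 and MTHFD1L 0.14, and 8 of the other pathway genes were called higher and 5 lower. Median centring put PSPH at 0.035. Quantile normalization put the median of the 10 genes at 0.0074, PSPH at 0.17, SHMT2 at 0.0088, MTHFD1L at 0.0059 and MTHFD2 at 0.0036. A fold of 2 left 0 of the 10 called higher and 0 lower, and a fold of 1.2 called 1 higher and 3 lower. The shares of all genes at these 2 folds were not computed. However, 25% of all genes lay below a log2 change of -0.36, itself past 1.2-fold, so the 3 lower calls do not set the 10 genes apart. The equal sums lower every normoxia value by 1 factor and raise every hypoxia value by another, which moved the median of all genes by 0.22. The table gives neither counts nor replicate values, so the precision of low values such as those of ALDH1L2, MTHFD2L and the minor SHMT2 transcripts could not be given.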
